A study of Mus musculus with 2 samples.

Results

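CpG methylation was examined in gene deserts, the long stretches of chromosome that hold no annotated gene, in mouse haploid embryonic stem cells. A window of 1 kb was taken as a gene desert window when it lay more than 100 kb from every protein-coding and lncRNA gene of the RefSeq annotation of mm10. It also had to hold at least 3 CpGs with 10 or more reads in each of the libraries and fewer than 15 CpGs listed in both. Of 90713 windows with at least 3 such CpGs on chromosomes 1 to 19, 4831 met this rule, and they held 24337 compared CpGs. The rule used position and depth and no methylation value. The 67575 windows that met the same criteria on CpGs but lay within 100 kb of a gene or inside one are given beside them.

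A129-2 has the strain background 129Sv. AOS-14 has the strain background C57BL/6, and genomic DNA of each line gave 1 library. Both lines came from cells sorted out of AG-haploid embryos, an abbreviation the labels do not spell out, and both grew in embryonic stem cell medium. Methylation was read by sequencing bisulfite-treated DNA, in which unmethylated cytosines are converted, so that a CpG's level is the share of its reads that kept the cytosine. Line, strain and library cannot be told apart in this design, and no difference has a replicate check. The tests therefore compare the reads of 2 libraries, not the lines.

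DNA methylation of CpGs is laid down by the de novo methyltransferases DNMT3A and DNMT3B and copied at replication by DNMT1 with its partner UHRF1. In most mammalian cells CpGs outside CpG islands are largely methylated, and sequence far from genes, rich in remnants of transposable elements, makes up much of that methylated background. Embryonic stem cells are known for levels that vary with culture, and in the naive ground state they lose much of it.

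For A129-2, 1699405 CpGs were listed from 153035567 read calls, and for AOS-14, 1819756 CpGs from 178315194. Desert windows had between 30 and 102975 reads in A129-2, with a median of 475, and between 33 and 123997 in AOS-14, with a median of 519. The median desert window held 4 compared CpGs. The reads of a window are summed over its compared CpGs, so a read that spans several of them counts at each. Such counts and PCR copies are not independent. Window intervals can therefore be too narrow and p-values too small, and intervals and tests cover at most counting error.

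The measured gene desert windows carried low methylation in A129-2 and intermediate methylation in AOS-14. Most desert sequence was not measured, so these levels do not describe the deserts as a whole. Desert windows averaged 18.7% in A129-2 and 33.9% in AOS-14. The ratio of these means was 0.551. The SD over windows, which are not replicates, was 9.50 points in A129-2 and 14.8 points in AOS-14. The middle 50% of windows lay between 12.2% and 22.9% in A129-2 and between 22.6% and 44.3% in AOS-14. The AOS-14 distribution was broad and the A129-2 distribution narrow. A level of at least 50% was reached by 46 windows (0.952%) in A129-2 and by 752 (15.6%) in AOS-14, while 683 windows (14.1%) in A129-2 and 145 in AOS-14 were under 10%.

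**Figure D1:**
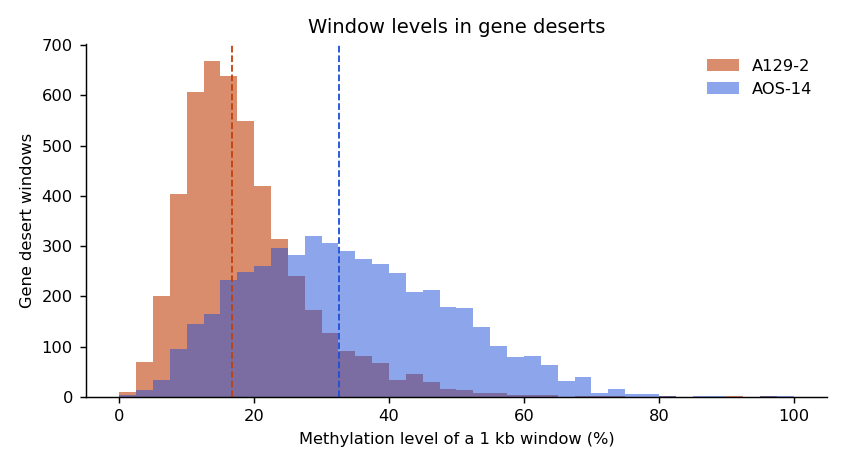
Histogram of the methylation level of the 4831 gene desert windows, in percent, with the number of windows on the vertical axis and 1 library per line. Dashed lines mark the median window, at 16.7% in A129-2 and at 32.6% in AOS-14, and the AOS-14 windows spread over a wider range.

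Most windows were lower in A129-2, in deserts and elsewhere. The mean difference, A129-2 minus AOS-14, was -15.2 points, and 4608 of 4831 desert windows (95.4%) had the lower level in A129-2. So did 91.1% of the other windows and 89.96% of all windows, so this share is close to the background. Each window was tested on its summed methylated and unmethylated reads with a two-sided Fisher's exact test, adjusted by Benjamini-Hochberg over all 90713 windows, and called where the adjusted p was under 0.05 and the mean levels differed by at least 25 points. Of the desert windows 756 (15.6%) were called lower in A129-2, where 4.87% of all windows were, and 2 (0.0414%) were called higher, where 0.00992% of all were. The called lower windows averaged 19.8% in A129-2, against 52.3% in AOS-14. In 733 of them each compared CpG was lower in A129-2, which the minimum of 25 points itself favours. Each compared CpG was lower in 69.8% of all desert windows and in 46.3% of all windows. Counting differences of any size, 3854 desert windows (79.8%) passed as lower and 33 (0.683%) as higher, where 59% and 0.849% of all windows did. Calls were about as frequent at low and high depth: 17.2% of desert windows whose shallower library had 30 to 100 reads were called lower, and 16.2% of those with at least 1000.

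Single CpGs gave the same order of shares. Of 24337 desert CpGs, 4363 (17.9%) passed as lower in A129-2 and 16 (0.0657%) passed as higher. This was Fisher's exact test per CpG with the same thresholds, adjusted over 997556 CpGs. Of all CpGs 3.89% were called lower and 0.0289% higher. Within a desert window the CpGs were uneven, with a median range between its lowest and highest CpG of 20.6 points in A129-2 and 27.4 points in AOS-14.

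**Figure D2:**
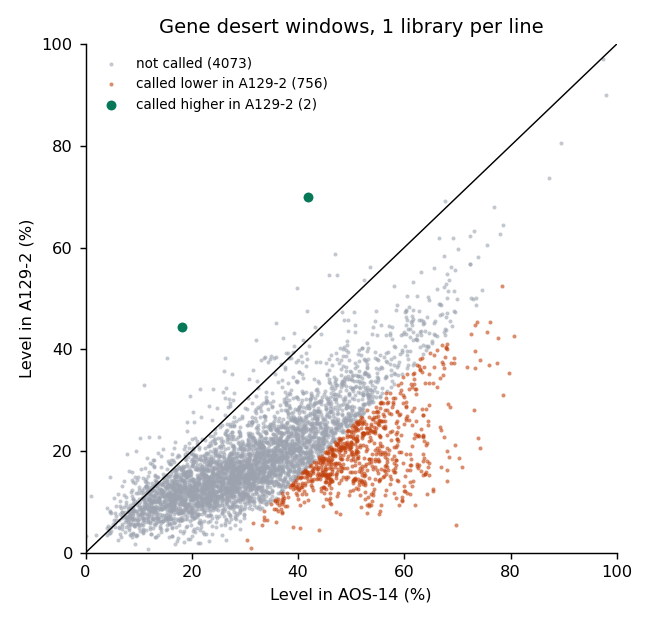
Methylation level in percent of each gene desert window in AOS-14 (horizontal) and A129-2 (vertical), 1 library per line, with the line of equal levels. The 756 windows called lower in A129-2 lie well under that line, and the 2 called higher lie above it.

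Windows near or inside genes had lower levels than desert windows, and the gap was wider in AOS-14. The other 67575 windows averaged 15.9% in A129-2 and 25.6% in AOS-14. Their ratio was 0.622, and 4.75% of them were called lower in A129-2. A call of lower methylation needs at least 25% in AOS-14, a level reached by 3338 desert windows (69.1%) and 33744 other windows (49.9%). Among these, 22.6% of the desert windows and 9.51% of the other windows were called lower in A129-2. Whether desert windows differ from the others was not tested, since windows are not replicates of a line.

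The levels changed with distance from the nearest gene. In A129-2 the mean window level was 15.4% in windows overlapping a gene, 15.4% up to 10 kb away, 17.7% from 10 to 50 kb and 18.4% from 50 to 100 kb. Inside the deserts it was 18.8% from 100 to 200 kb, 18.5% from 200 to 500 kb and 18.8% beyond 500 kb. The A129-2 level was thus nearly the same in the 3 desert classes. In AOS-14 the corresponding means were 24.5%, 24.5%, 29.5% and 31.7% outside the deserts, and 33.4%, 34.2% and 34.7% in the 3 desert classes. The share of windows called lower in A129-2 was 3.499% in genes, 4.66%, 8.29% and 11.1% in the next 3 classes, and 13.9%, 16.2% and 19.2% in the deserts, so it was highest in the class farthest from genes. Median reads per window were alike across the classes, between 457 and 488 in A129-2 and between 509.5 and 585 in AOS-14. The shares of CpGs inside a CCGG motif ran from 39.1% beyond 500 kb to 44.7% within 10 kb.

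**Figure D3:**
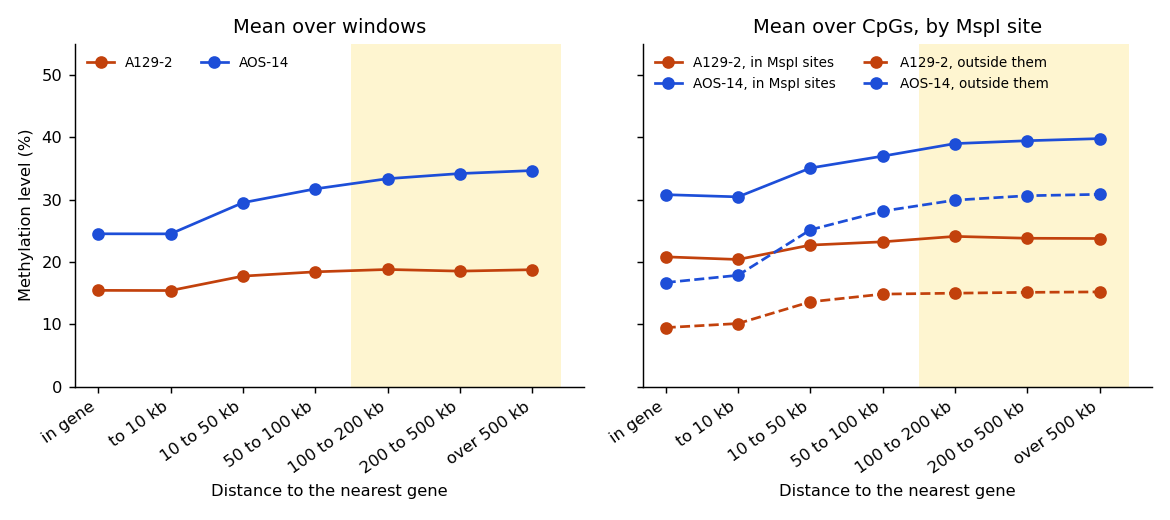
Mean methylation level in percent by distance to the nearest gene, over windows (left) and over CpGs inside or outside the MspI site (right), with the gene desert classes shaded. Levels outside the site were 15.2% in A129-2 and 30.9% in AOS-14 beyond 500 kb, and 9.46% and 16.7% in windows overlapping a gene.

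Windows on either side of the distance threshold had overlapping values. The member nearest to the threshold lay 100.053 kb from Xkr4 on chromosome 1 (3772073 to 3772137), at 15.1% in A129-2 and at 28.2% in AOS-14. The next were 100.073 kb from the tyrosine kinase gene Fer on chromosome 17 (63761965 to 63761996), with 25.3% and 52.9%, and 100.124 kb from Gm31058 on chromosome 10 (114011307 to 114011915), with 19.9% and 44.0% in the same order of lines. The difference of the Gm31058 window, -24.0 points as a mean over CpGs, was -13.2 points weighted by reads. Just outside lay windows 99.997 kb from 2410018L13Rik (38.9% in A129-2 and 47.8% in AOS-14), 99.941 kb from the membrane repair gene Dysf (23.7% and 33.7%) and 99.836 kb from Lnpk (22.7% and 44.9%). Windows over 100 kb from genes with 14 listed CpGs, inside the rule, averaged 17.4% in A129-2 and 32.4% in AOS-14, and those with 15, outside it, 18.7% and 32.7%. Members with 3 compared CpGs averaged 18.4% in A129-2, and windows with 2, which are not members, also 18.4%.

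The level differed with CpG density in deserts and, in the opposite direction, near genes. Desert windows with 3 listed CpGs averaged 17.4% in A129-2 and 31.2% in AOS-14, those with 6 to 8 listed CpGs 19.8% and 36.0%, and those with 9 to 14 listed CpGs 18.9% and 34.6%. The share called lower was 10.7% with 3 listed CpGs, 18.7% with 6 to 8 and 17.5% with 9 to 14. Among the other windows those with 3 listed CpGs had 17.8% in A129-2 and 28.4% in AOS-14, those with 6 to 8 had 15.3% and 24.9%, and those with 9 to 14 had 12.9% and 20.9%. The share of CpGs in a CCGG motif moved with density, at 62.5% with 3 listed CpGs and 31.6% with 9 to 14 in deserts, and 63.5% and 32.5% in the other windows, and its part in these levels was not tested. The sparsest windows were thus alike in A129-2 on both sides of the threshold, while the densest were higher in deserts in both libraries. Binned by AOS-14 level, the A129-2 to AOS-14 ratio in deserts and in the other windows was 1.01 and 0.885 under 10%, 0.711 and 0.715 from 10% to 20%, and 0.571 and 0.624 from 20% to 30%. It was 0.544 and 0.595 from 30% to 40%, 0.521 and 0.584 from 40% to 50%, and 0.484 and 0.552 from 50% to 60%. From 60% to 70% it was 0.543 and 0.557, from 70% to 80% 0.605 and 0.643, and above that, with 5 desert windows, 0.848 and 0.755. The desert ratio was thus lower in the 7 bins between 10% and 80% and higher in the lowest and highest bins. These bins rest on AOS-14 itself, so counting error there moves the ratios.

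The bases around the CpG were the sequence available for these windows, and they are shown because the level differed with them. Each CpG is given with the base before and after it. Pooling a context with its reverse complement leaves 10 contexts, while single CpGs are given as read on the plus strand. CCGG, the site of the enzyme MspI that is used to cut DNA in reduced representation bisulfite sequencing, made up 40.04% of desert CpGs and 43.3% of CpGs of the other windows. At CCGG the mean level in deserts was 23.9% in A129-2 and 39.3% in AOS-14, and outside it 15.1% and 30.4%. In the other windows the levels were 21.2% and 31.7% at CCGG, and 10.4% and 18.6% outside it. Thus the deserts were higher than the other windows in both libraries with and without CCGG. In 4639 desert windows with CpGs of both kinds, CCGG was the higher in 4095 in A129-2 and in 3905 in AOS-14. Coverage differed with it: 12.4% of desert CpGs at CCGG had at least 10 reads on each strand in A129-2, against 66.3% elsewhere, and the part of this in the levels was not tested.

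Among the 10 contexts in deserts, TCGA stood lowest in the ratio of A129-2 to AOS-14. Its 1233 desert CpGs averaged 15.3% in A129-2 and 39.8% in AOS-14, and 46.1% of them were called lower, where 16.6% of TCGA CpGs in the other windows and 3.89% of all CpGs were. The ratio was 0.385. TCGA had the lowest ratio in the other windows too, 0.477, from means of 11.4% in A129-2 and of 23.9% in AOS-14. CCGG had the highest ratio in deserts, 0.609. ACGT, with 291 desert CpGs, had the lowest levels, 8.12% in A129-2 and 17.9% in AOS-14. The remaining 7 contexts lay between GCGC, with 11.7% in A129-2 and 25.6% in AOS-14, and CCGA, with 19% and 33.5%. Outside recurrent spacing patterns, described next, TCGA still had the lowest ratio of the desert contexts, 0.416, over 652 CpGs.

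Many desert CpGs lay in spacing patterns that recur across the genome. Copies of a repeat can share such a spacing. Here a pattern means 5 listed CpGs in a row, no more than 60 bp from one to the next, with the same distances at 5 or more places in either direction. Such runs held 42.8% of compared desert CpGs and 20.2% of those in the other windows. In deserts mean levels were close inside and outside them, with 19% in A129-2 and 34.7% in AOS-14 inside, and 18.3% and 33.4% outside. Calls were less alike: 20.7% of desert CpGs inside such runs were called lower and 15.8% of those outside, where 3.89% of all CpGs were. In the other windows the levels were 13.0% and 22.1% inside such runs, and 15.6% and 24.8% outside. How reads that match several copies were handled is not given in the sources used here, so values at single copies are uncertain.

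The 5 patterns most frequent in deserts covered 217 desert windows, of which 111 (51.2%) were called lower in A129-2, and 4.87% of all windows were. They were ranked by their number of places and not by level. They are not all separate. Read in reverse, steps of 7, 5, 4 and 29 bp share 4, 5 and 7 bp with steps of 4, 5, 7 and 7 bp. Likewise, 7, 20, 2 and 8 bp in reverse share 8, 2 and 20 bp with 4, 8, 2 and 20 bp. A window can hold both patterns of such a pair and is then counted for each. Steps of 4, 5, 7 and 7 bp occurred at 62 desert places, with 18.3% in A129-2 and 59.95% in AOS-14, and 53 of the 56 windows that hold them were called. The same steps at 516 places outside desert windows had 17.8% and 57.0%. Steps of 7, 5, 4 and 29 bp occurred at 70 desert places with 18.8% in A129-2 and 57.2% in AOS-14, and at 512 other places with 20.4% and 59.1%. Copies in deserts and elsewhere thus had levels within 3 points of each other in each line. Steps of 12, 21, 4 and 14 bp behaved otherwise, their 40 desert places standing at 12.0% in A129-2 and at 18.6% in AOS-14 and copies elsewhere at 12.1% and 18.3%, and 1 of their 40 desert windows was called. The patterns of 7, 20, 2 and 8 bp and of 4, 8, 2 and 20 bp had the highest A129-2 levels of the 5, 23.2% and 24.9%, with 49.2% and 52.1% in AOS-14, over 92 and 84 desert places.

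The desert windows called lower with the largest differences include 4 that hold recurrent patterns. All 4 hold neighbouring steps of 4 and 5 bp, in either direction, as does the pattern of 4, 5, 7 and 7 bp. They may thus not be independent examples, and whether they are copies of 1 repeat was not tested. The largest difference, on chromosome 6 (20120184 to 20120212), lies 829 kb from Gm38772 and holds no recurrent pattern. It rests on few reads, with 2 of 36 methylated in A129-2 and 60 of 88 in AOS-14, summed over 3 CpGs. Each of these CpGs had 12 reads in A129-2. The window mean was 5.56% in A129-2, against 69.7% in AOS-14. Fisher's exact test gave an adjusted p of 3.73e-10. Exact 95% intervals on the reads were 0.680% to 18.7% in A129-2 and 57.4% to 77.7% in AOS-14.

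The next largest lies between Gm40298 and Slit2, a secreted axon guidance ligand, on chromosome 5 (46459275 to 46459328), 484 kb from the nearer gene. From left to right its 5 compared CpGs were CCGG, at 12.1% in A129-2 and 54.6% in AOS-14, CCGC, at 9.28% and 76.7%, TCGA, at 11.5% and 76.9%, TCGT, at 7.22% and 56.1%, and CCGG, at 30.4% and 75.9%. Each CpG was far lower in A129-2, and the ranges of the lines did not overlap. Over the window the mean was 14.1% in A129-2, from 775 reads, and 68.1% in AOS-14, from 991, with an adjusted p of 8.19e-137 by Fisher's exact test.

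Another of these windows lies 261 kb from Cxcr4, a chemokine receptor gene, on chromosome 1 (128853330 to 128853458). Its 5 CpGs averaged 16.8% in A129-2, against 70.8% in AOS-14, and 3 neighbours at its left end are TCGA. On chromosome 14 (92040484 to 92040573), 973 kb from the protocadherin gene Pcdh9, which encodes a cell adhesion protein, 12 of 12 CpGs were lower in A129-2. There the CpGs ranged from 6.25% to 31.3% in A129-2 and from 51.1% to 89.4% in AOS-14, with window levels of 20.6% and 74.3%. The window on chromosome 17 (54112578 to 54112631), 121 kb from the sulfotransferase gene Sult1c1 and 161 kb from the choline transporter gene Slc5a7, had 6 CpGs that averaged 12.2% in A129-2, against 65.4% in AOS-14. Its middle 3 neighbours in TCGA had 9.22%, 8.21% and 6.57% in A129-2 and 67.4%, 48.9% and 60.4% in AOS-14.

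Both windows called higher in A129-2 rested on few A129-2 reads, and 0 were called higher where both libraries had at least 100 reads. On chromosome 14 (9132284 to 9132335), 316 kb from Gm41097, 28 of 40 reads were methylated in A129-2 and 531 of 1322 in AOS-14. These are sums over CpGs, each with 10 reads in A129-2. The window mean was 70% in A129-2 and 41.8% in AOS-14, with an adjusted p of 6.07e-04 by Fisher's exact test. All 4 of its CpGs were higher in A129-2. On chromosome 8 (6014215 to 6014276), 909 kb from the ileal bile acid transporter gene Slc10a2, 17 of 38 reads were methylated in A129-2 and 34 of 189 in AOS-14, giving levels of 44.3% and 18.2% over 3 CpGs. Neither window could be compared with a minimum of 20 reads per CpG.

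A few desert windows were highly methylated in both libraries. The window on chromosome 15 (47121401 to 47121411), 459 kb from Csmd3, had 97.0% in A129-2 and 97.5% in AOS-14. Exact 95% intervals on its reads were 91.6% to 99.4% in A129-2 and 94.9% to 98.98% in AOS-14, and its 3 CpGs were each at 93.9% or more. The window on chromosome 3 (74865194 to 74865211), 172 kb from Zbbx, was methylated in 31 of 34 reads in A129-2 and 57 of 58 in AOS-14. On chromosome 13 (86713162 to 86713193), 666 kb from Cox7c, a subunit gene of cytochrome c oxidase, the levels were 80.6% and 89.5%. These stand out in A129-2, where 46 windows reached 50%. On chromosome 18 (3840256 to 3840305), 324 kb from Bambi, a pseudoreceptor gene of TGF-beta signalling, they were 73.7% and 87.2%. On chromosome 2 (47617311 to 47617387), 211 kb from Gm52576, 736 of 1068 reads were methylated in A129-2 and 1411 of 1874 in AOS-14, with levels of 67.9% and 76.9%. Its difference of -9.00 points was -4.23 points at the CpGs outside CCGG. One of its 5 CpGs, of context ACGG, was methylated in all 254 reads of A129-2 and all 465 of AOS-14. The Csmd3 and Cox7c windows hold recurrent patterns. The Csmd3 window has neighbouring steps of 4 and 5 bp, as do windows called lower above. In the Cox7c window the steps are 8, 2 and 20 bp, as in patterns described above. Whether these windows are copies of repeats was not tested.

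Windows of at least 50% in AOS-14 with the smallest differences had few reads. After the Csmd3 window came those whose nearest genes were Gm46840 on chromosome 4 (53.7% in A129-2 and 52.5% in AOS-14), Gm29924 on chromosome 5 (69.2% and 67.6%), Gm39886 on chromosome 2 (56.1% and 53.5%) and the phosphatase gene Ppp6c on chromosome 2 (47.4% and 50.5%). These 4 rested on 38 to 248 reads in A129-2 and 108 to 408 in AOS-14. The intervals of the lines overlapped in each of them, and adjusted p in Fisher's exact test was between 0.372 and 1. This does not show that the levels were equal. For the Gm29924 window the exact 95% interval ran from 51.3% to 82.5% in A129-2 and from 57.9% to 76.3% in AOS-14. This window holds a recurrent pattern. Its compared CpGs have the same contexts and spacing as those of the Ppp6c window and of the Zbbx window described above. These windows may thus not be independent examples, and whether they are copies of a repeat was not tested.

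By desert, A129-2 was lower in nearly all means. A desert is a stretch in which each base lies more than 100 kb from a gene, and 843 of 1200 such stretches held a desert window, 164 of them a single one. The mean level was lower in A129-2 in 835 of these 843 deserts and higher in 8. The 144 deserts with at least 10 windows held 2409 windows, and A129-2 was lower in 144 of 144, with mean levels from 12.8% to 36.6% in A129-2 and from 23.1% to 51.4% in AOS-14. Their differences ran from -24.3 to -7.88 points. Across these 144 deserts Pearson r between the means of A129-2 and AOS-14 was 0.820 and Spearman rho 0.795, given as a description, since the points share both libraries.

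Windows of the same desert were almost as varied as windows of different deserts. Over the 144 deserts, 15.2% of the sum of squares of window levels in A129-2 and 11.6% in AOS-14 lay between deserts, where the number of deserts alone would give 5.94%. Adjacent desert windows, 398 pairs, had a median gap in level of 5.65 points in A129-2 and 9.76 points in AOS-14, with Pearson r of 0.421 and 0.543. A read that crosses the boundary of adjacent windows can count in both. Neighbouring members 2 to 10 kb apart, 604 pairs, had gaps of 6.97 and 12.0 points and r of 0.262 and 0.249. Those 11 to 100 kb apart, 2237 pairs, had gaps of 7.04 and 13.5 points and r of 0.0635 and 0.0558. Likeness between windows was thus seen mainly up to 10 kb, and the part of shared reads in it was not tested.

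The desert with the most windows lies between Gm35552 and Grik2, a kainate-type glutamate receptor gene, on chromosome 10 (47134783 to 48993679). Its 45 windows averaged 19.3% ± 7.88 in A129-2 and 36.4% ± 13.8 in AOS-14 (SD over windows), and 45 of 45 were lower in A129-2, where 95.4% of desert windows and 89.96% of all windows were. Of the 45, 10 (22.2%) were called lower, where 15.6% of desert windows and 4.87% of all windows were. The desert between D3Ertd751e and 2610316D01Rik on chromosome 3 (41903308 to 45180438) was the longest, at 3277 kb, and its 38 windows averaged 16.5% ± 8.38 and 33.4% ± 14.8. It holds the 3 windows farthest from any gene, 1643 to 1738 kb away. These had 14.2%, 5.72% and 16.5% in A129-2 and 24.8%, 21.7% and 38.2% in AOS-14. They were lower in A129-2, none by the 25 points a call needs.

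Of the 10 deserts with most windows, 3 had higher means in both lines. The desert right of Cox7c on chromosome 13 (86146796 to 87693850) averaged 25.6% in A129-2 and 41.5% in AOS-14 over 37 windows, from 6.45% to 80.6% and from 8.67% to 89.5%. The desert between Gm31973 and Gm41924 on chromosome 1 (101380207 to 104204698), 2824 kb long, had 24.7% and 42.2% over 35 windows, and that right of Gm32710 on chromosome 9 (11010190 to 12991266) had 24.1% and 40.6% over 33. Another 5 lay between 18.2% and 19.2% in A129-2 and between 30.8% and 36.8% in AOS-14. They flank Nova1, a neuronal splicing factor gene on chromosome 12, the adhesion receptor gene Adgrl3 on chromosome 5 (2870 kb long), Pcdh9 on chromosome 14, and the gene models 4930590L20Rik on chromosome 1 and Gm33780 on chromosome 2. In each of these 10 deserts between 5 and 10 windows, 12.8% to 28.1% of its windows, were called lower in A129-2 and 0 higher.

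**Figure D4:**
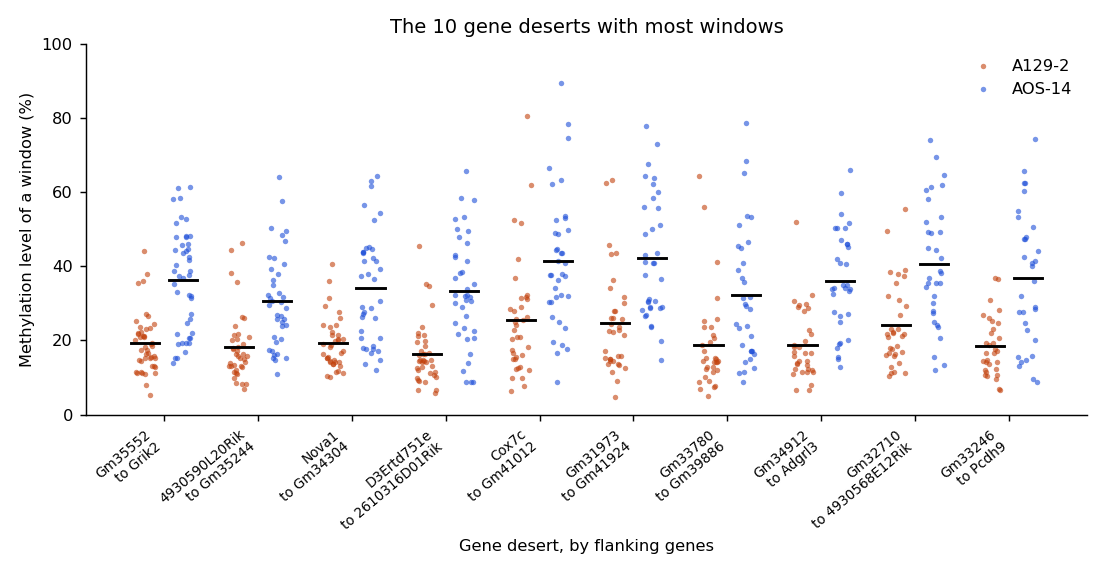
Methylation level in percent of each window in the 10 gene deserts with most windows, 1 library per line, with black bars at the mean over windows. Mean levels are 16.5% to 25.6% in A129-2 and 30.8% to 42.2% in AOS-14, and the windows of the lines overlap in each desert.

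Some deserts, chosen after their values were seen, mark the ends of the range among deserts with at least 10 windows. A call of lower needs at least 25% in AOS-14. Choosing deserts by their AOS-14 mean or difference therefore partly fixes their shares of calls. The lowest AOS-14 mean was between C330004P14Rik and Gm20125 on chromosome 10, with 15.2% in A129-2 and 23.1% in AOS-14 for 11 windows. It also had the smallest difference, and 0 of its windows were called, where 15.6% of desert windows were called lower. The highest AOS-14 mean was between Gm51970 and Gm32773 on chromosome 12, with 27.9% in A129-2 and 51.4% in AOS-14 for 10 windows, 5 of them called lower (50%). Between Abca13, a transporter gene, and Vwc2 on chromosome 11 the levels were 25.4% and 47.9% over 28 windows, and 10 (35.7%) were called lower. The highest A129-2 mean, 36.6%, was between Gm35912 and Gm35974 on chromosome 16, with 48.8% in AOS-14 over 10 windows and 0 called.

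**Figure D5:**
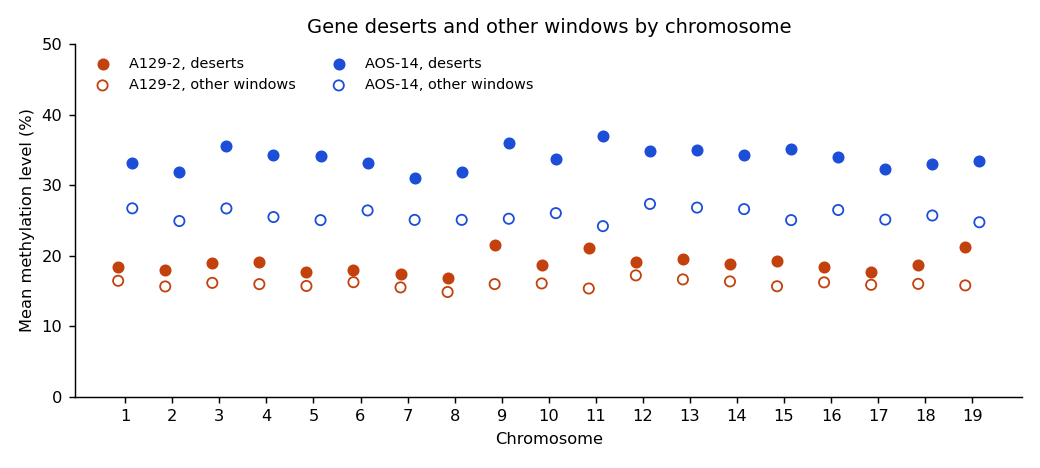
Mean methylation level in percent by chromosome for gene desert windows (filled) and other windows under the same criteria on CpGs (open), 1 library per line. Desert means are above those of the other windows on 19 of 19 chromosomes in each line.

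By chromosome, desert windows were above the other windows in both libraries on 19 of 19 autosomes. The ratio of A129-2 to AOS-14 in deserts ran from 0.518 on chromosome 5 to 0.632 on chromosome 19, which held 53 desert windows, and it was below that of the other windows on 19 of 19. The share of windows in deserts differed among chromosomes, from 2.55% on chromosome 19 to 11.6% on chromosome 3. Chromosomes 9, 19 and 11 had the highest A129-2 desert means, 21.5%, 21.2% and 21.0%, and chromosomes 11, 9 and 3 the highest AOS-14 means, 36.9%, 36.0% and 35.5%. On chromosome 8, A129-2 had its lowest desert mean, 16.8%, with 31.9% in AOS-14.

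The label of gene desert holds for protein-coding and lncRNA genes, but 245 member windows (5.07% of them) overlap a RefSeq gene of another type. Of these, 156 windows lie in pseudogenes, and they averaged 19.5% in A129-2 and 34.2% in AOS-14. Of them 18 (11.5%) were called lower, below the 15.6% of all desert windows and above the 4.87% of all windows. Antigen receptor loci, which the annotation holds as units of another type, account for most of the rest. They are assembled by recombination in lymphocytes and lie unrearranged in stem cells. The immunoglobulin kappa locus Igk on chromosome 6 held 46 windows with 15.8% in A129-2 (6.04% to 40.8%) and 30.8% in AOS-14 (8.62% to 63.6%), and 7 (15.2%) were called lower, close to the share over deserts. The heavy chain locus Igh on chromosome 12 held 16 windows with 18.3% and 35.2%, and the T cell receptor alpha locus Tcra on chromosome 14 held 15 with 23.6% and 35.4%. The 4586 desert windows that overlap no RefSeq gene had 18.6% in A129-2 and 33.9% in AOS-14, and 724 of them (15.8%) were called lower.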

How the data were processed

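CpG methylation was measured in 1 library of each line. Per the labels' protocols regulatory sequence was captured with a methylation panel and treated with bisulfite. The sample titles name reduced representation bisulfite sequencing instead, and which was used is not settled. Duplicate removal is not given in the sources used here, and BSMAP and mm10 were used, per the submitters' processing notes. By the file headers, the authors deposited, for each CpG, the count of all reads and of methylated reads, both strands added, and their fraction.

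Levels were recomputed from the deposited counts in percent. A window level is the mean over its compared CpGs, and the difference is A129-2 minus AOS-14. Panel capture or enzyme cutting leaves most desert sequence unmeasured. Genes came from RefSeq GRCm38.p6 (32884 used); 189 placed before the first listed CpG were left out. Desert windows were named by rank of difference, level or distance, and deserts by windows or length. The members and rules were chosen with earlier results of these data known. The window test and its calls were run on simulated data. Alternatives varied reads, CpGs, distance, gene types, window size, motif and recurrent patterns. A further alternative left out CpGs near 0 in 1 line, and 754 of 4829 desert windows were then called lower in A129-2. Whether base differences between the strains affect the levels was not tested. The versions were scipy 1.17.1, pandas 2.3.3, numba 0.67.0, numpy 2.4.6, matplotlib 3.10.9 and Python 3.11.15.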

Additional observations from a re-analysis of the deposited data

How the results depend on the processing

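The mean difference of -15.2 points over desert windows was negative under all alternatives run. It was -15.4 with a minimum of 20 reads, -15.5 with 30, -15.9 with at least 5 compared CpGs, -15.7 beyond 200 kb, -14.5 beyond 50 kb, -16.0 outside CCGG and -14.9 without recurrent spacing patterns. The 756 windows called lower were 15.6% of desert windows. Under alternatives where fewer windows qualified, the count fell, and the share was as follows. It was 387 of 2215 (17.5%) with at least 5 CpGs and 455 of 2665 (17.1%) beyond 200 kb. Where every RefSeq gene bounded deserts it was 358 of 2234 (16.0%). Outside CCGG it was 522 of 2475 (21.1%), and without recurrent patterns 478 of 3301 (14.5%). With a minimum difference of 10 points 3148 desert windows (65.2%) were called lower, and with 40 points 112 (2.32%). Shares over all windows at these 2 thresholds are not given here, so these counts say nothing particular to deserts. The 2 windows called higher became 0 with 20 or 30 reads, with 5 CpGs or with 40 points, and 0 with at least 100 reads per window, an alternative chosen after seeing the data. They became 1 with every RefSeq gene, outside CCGG or without recurrent patterns, and 12 with 10 points. The 4363 CpGs called lower, 17.9% of desert CpGs, became 2790 of 14593 (19.1%) outside CCGG. Of 22 named windows, 46 recomputed differences kept their direction and call, and 20 could not be computed for want of CpGs. Of the 46, 3 moved by over 1.5 times: weighting by reads took the Gm31058 window to -13.2 points (-24.0 before) and the Gm29924 window to 0.828 (1.64 before), and leaving out CCGG took the Gm52576 window to -4.23 (-9.00 before). At 10 reads, the exact 95% interval of a level of 50% runs from 18.7% to 81.3%. No paired analysis was possible because each line has 1 library.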
